A study of Homo sapiens with 30 samples.

Results

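The IFIT and IFITM families were followed in 2 human glioblastoma cell lines, U87-MG (U87) and U251-MG (U251), cultured with interferon-γ (IFN-γ). The 7 genes, IFIT1, IFIT2, IFIT3, IFIT5, IFITM1, IFITM2 and IFITM3, were chosen by symbol from the 61471 rows of each line's expression table, and each had 1 row in both tables. All 7 passed the filter on low values in both lines. RNA was measured by sequencing in 30 libraries, labelled as 3 biological replicates of 5 groups per line. Untreated cells received no IFN-γ. The D3 and D14 groups were collected after 3 and 14 days of IFN-γ, the D28 group after 28 days of unbroken exposure, and the D28WO group at day 28 after 14 days of IFN-γ and 14 days of washout. All groups shared the wild-type genotype label and the same medium with serum. The labels give 1 µg/mL IFN-γ in one field and 1 µL/mL in another, the study's methods state a lower concentration, the labels put the Untreated collection at day 3, and the methods put it at the start of treatment. No group was an untreated culture of 14 or 28 days, so in comparisons with Untreated or between days, time in culture and exposure to IFN-γ cannot be told apart after D3, nor at D3 if the controls were taken at the start. D28 and D28WO share their day and differ in exposure, and by the study's methods they are arms of cultures split at D14. The U87 table holds 2 columns with one name and lacks a column for another library, which left 13 libraries in U87, 2 of them at D3 and 2 at D14. U251 had all 15 libraries.

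IFIT proteins (interferon-induced proteins with tetratricopeptide repeats) are cytosolic RNA-binding proteins. IFIT1 binds the 5′ end of RNA that lacks the methylation of host caps and blocks its translation, IFIT2 and IFIT3 join it in complexes and IFIT3 stabilizes it, and IFIT5 binds 5′-triphosphate RNA. IFITM proteins (interferon-induced transmembrane proteins) sit in membranes and hinder the fusion of enveloped viruses, with IFITM1 mostly at the cell surface and IFITM2 and IFITM3 mostly in endosomes. Genes of both families are classical targets of the interferon-stimulated response element (ISRE), which is bound by factors that include IRF9, after type I interferon, and IRF1. IFN-γ itself signals mainly through the gamma-activated site (GAS), and among the genes that it raises is IRF1.

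The IFIT genes lie side by side on the plus strand of chromosome 10 (GRCh38, GENCODE release 44), IFIT2 at chr10:89283694-89309271, IFIT3 at chr10:89327307-89377473, IFIT1 at chr10:89392546-89406487 and IFIT5 at chr10:89414568-89421605. The IFITM genes are clustered near the end of chromosome 11, IFITM2 at chr11:303655-309397 and IFITM1 at chr11:310041-315272 on the plus strand and IFITM3 at chr11:319676-329475 on the minus strand. The promoter table from RefSeq (GRCh38.p14) was searched on both strands, in the 250 bases before each start, for the ISRE core GAAANNGAAA and the GAS core TTCNNNGAA. It held 2 promoters of IFIT3 and 1 each of IFIT1, IFIT5, IFITM1 and IFITM3, with no entry for IFIT2 or IFITM2. ISRE cores were found in each of these 6 promoters, 2 in each but that of IFITM1, which had 1, against 3.02% of all 35116 promoters. Among the members with a promoter entry, only IFITM1 had a GAS core, found in 6.57% of promoters, and the sites did not overlap. A match is a description of the letters and not evidence of binding. The sequences are shown because the members differ in the number, order and strand of these cores. ISRE cores, and in the line named GAS the GAS core, are in capitals, and bases are counted back from the start site. IFIT cores read on the minus strand and so appear as the reverse complement:
IFIT1, chr10:89392473-89392545, plus strand, bases -150 to -78 from the start site: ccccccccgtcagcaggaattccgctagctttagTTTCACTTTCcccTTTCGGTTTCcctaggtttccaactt
IFIT3, first promoter, chr10:89327831-89327940, plus strand, bases -166 to -57 from the start site: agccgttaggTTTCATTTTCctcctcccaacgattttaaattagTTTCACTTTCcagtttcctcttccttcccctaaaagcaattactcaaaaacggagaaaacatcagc
IFIT3, second promoter, chr10:89332379-89332483, plus strand, bases -150 to -46 from the start site: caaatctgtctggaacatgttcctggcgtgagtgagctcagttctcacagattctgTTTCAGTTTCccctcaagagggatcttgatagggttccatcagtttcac
IFIT3, second promoter, nearer core, chr10:89332468-89332497, plus strand, bases -61 to -32 from the start site: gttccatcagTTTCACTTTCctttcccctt
IFIT5, farther core, chr10:89414513-89414542, plus strand, bases -55 to -26 from the start site: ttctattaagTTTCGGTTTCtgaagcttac
IFIT5, nearer core, chr10:89414539-89414567, plus strand, bases -29 to -1 from the start site: ttacgtttagTTTCGATTTCttaagtttc
IFITM1, chr11:313990-314019, plus strand, bases -50 to -21 from the start site: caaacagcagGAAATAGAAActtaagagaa
IFITM1, GAS, chr11:314018-314039, plus strand, bases -22 to -1 from the start site: aaatacacacTTCTGAGAAact
IFITM3, chr11:320861-321010, minus strand, bases -150 to -1 from the start site: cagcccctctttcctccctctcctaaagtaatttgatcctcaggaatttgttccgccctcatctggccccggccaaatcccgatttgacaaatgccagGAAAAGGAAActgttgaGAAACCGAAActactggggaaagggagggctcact

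The longer stretches, of IFIT1, IFIT3 and IFITM3, overlap no annotated exon. The farther IFIT5 core lies in an exon of LIPA, a lysosomal lipase gene on the opposite strand, and the nearer one reaches past the end of that exon, and the IFITM1 cores and the line of the nearer core of the second IFIT3 promoter reach into annotated exons of other transcripts of the same gene.

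Levels are given as TPM, as the labels name them, an abundance corrected for transcript length and scaled to the same total in every library. A sheet of the study calls such matrices CPM, which would not be corrected for length, and statements here that compare genes with each other hold only if the values are TPM. Either way the sequencing depth cannot be read from these values. Between 24223 and 28649 genes were above 0 in U87 and between 24450 and 30246 in U251. These numbers differed between groups, with 24223 to 25459 in Untreated U87, below every treated U87 library, and with 25633 to 26378 at D28WO in U251, below the 28955 to 30246 at D28, and their part in the results was not tested. Differences were tested within each line on log2(TPM + 1) with limma, all 5 groups in 1 fit, and p-values were adjusted by Benjamini-Hochberg over 22918 genes in U87 and 23667 in U251. A gene is said to rise or fall where the adjusted p was under 0.05 and the log2 fold change was over 1 in size. Fold changes are log2 values with their standard error, and understate changes of genes near 0. The 4 comparisons of a line with Untreated share those control libraries. In bulk RNA, fewer responding cells and less RNA per cell cannot be told apart. The lines were normalized separately and were not compared in a test.

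VIM and CD44, markers of glioma cells of mesenchymal kind, were high in both lines, from 471 TPM upwards in U87 and from 394 TPM upwards in U251. GFAP, SOX2 and S100B were present in all U251 libraries. In U87 SOX2 was at most 0.411 TPM and GFAP at most 19.1 TPM, so SOX2 and GFAP were low or absent there. Other glial markers were present in every U87 library, SLC1A3 from 46.7 TPM, NES from 19.7 TPM and OLIG2 from 3.51 TPM upwards. The study notes that both lines went without a new identity check. The 5 leukocyte markers summed to at most 1.69 TPM in U87 and 6.01 TPM in U251, where CD14, which rose in each comparison with Untreated, supplied most of it in the treated libraries. In U251 the 8 glial markers summed to 3805 to 3901 TPM in Untreated and 1587 to 1915 TPM at D3, with NES, GFAP and S100B lower, and the 3 endothelial markers to 26.6 to 38.4 TPM and 2.45 to 3.46 TPM, CDH5 being lower. OLIG2 was listed at 0 in some U251 libraries. The 4 fibroblast markers summed to 680.0 to 727 TPM in Untreated U251 and 247 to 309 TPM at D3, and to 516 to 603 and 437 to 482 TPM in U87, and KRT8 was the highest of the 3 epithelial markers, at most 68.0 TPM. At D28 and D28WO in U251 the glial sum was 1786 to 2000.2 and 2167 to 2289 TPM, the fibroblast sum 336 to 392 and 393 to 439 and the endothelial sum 4.16 to 4.82 and 4.31 to 8.80, all below Untreated. GFAP, S100B, CDH5 and KRT8 fell there at D3, D28 and D28WO, and the mean of KRT8 was 66.0, 31.0, 32.8 and 29.9 TPM in Untreated and these groups. The part of these shifts in the results on the members was not tested.

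In U87, IFIT2, IFIT3 and IFITM1 showed the widest differences of the 7 members. They rose at D3, stood at the Untreated level (IFIT2, IFIT3) or partway back to it (IFITM1) at D14, and were as high as at D3 or higher at day 28, with or without washout. IFIT1, IFIT5, IFITM2 and IFITM3 had smaller differences, also above Untreated at D3 and D28. Against Untreated, 3 of the 7 rose at D3 (all genes: 5.85%), 1 at D14 (1.89%), 6 at D28 (6.77%) and 3 at D28WO (12.8%). No member fell. The median log2 fold change of the 7 members was 0.87, 0.11, 1.03 and 0.88 in that order, beside 0.20, 0.15, 0.19 and 0.25 over all genes tested, and the members' values are to be read relative to these shifts. The D3 and D14 groups of U87 held 2 libraries each. None of the cell markers passed the limits against Untreated at D3 or D14 in U87, while at D28 GFAP went from 4.84 to 14.2 and S100B from 1.05 to 2.94 TPM and rose, and THY1 fell from 3.28 to 0.361 TPM (group means).

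IFIT2 held 4.85, 5.52 and 4.65 in Untreated, 23.1 and 24.5 at D3, and 5.10 and 5.82 at D14 (TPM). Its D14 libraries lay within or just above the Untreated range, while both D3 libraries were far above. At day 28 IFIT2 stood at 26.1, 25.1 and 28.8 at D28 and 27.9, 23.3 and 25.6 at D28WO, with none of the 6 below the lower D3 library. The log2 fold change was 2.05 ± 0.15 for D3 (adjusted p = 3.18e-06), 0.11 ± 0.15 for D14 (0.716), 2.21 ± 0.13 for D28 (5.12e-07) and 2.15 ± 0.13 for D28WO (3.97e-07).

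IFIT3, the stabilizing partner, showed a similar pattern from a higher base. Its levels were 19.9, 21.0 and 18.02 in Untreated, 76.2 and 88.8 at D3, and 19.3 and 18.9 at D14 (TPM), so both D14 libraries lay within the Untreated range. The day 28 libraries held 86.5, 80.4 and 94.6 at D28 and 80.5, 87.01 and 84.9 at D28WO. The log2 fold changes against Untreated were 2.01 ± 0.10, -0.04 ± 0.10, 2.09 ± 0.09 and 2.05 ± 0.09 for D3, D14, D28 and washout in turn, and at D14 the 95% interval ran from -0.26 to 0.19.

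IFIT1, the cap sensor, showed smaller differences. It held 6.98, 6.33 and 5.69 in Untreated, 11.1 and 13.8 at D3, and 6.42 and 7.42 at D14 (TPM). Both D3 libraries exceeded all Untreated libraries, and the D14 libraries overlapped them. At day 28 the values were 12.8, 13.4 and 14.99 at D28 and 10.7, 11.1 and 10.8 at D28WO, and the washout libraries lay below all continuous ones. The log2 fold change was 0.87 ± 0.17 for D3 (adjusted p = 0.00590), under the fold limit but for the fit without D3 replicate 2 (1.01), and 1.01 ± 0.15 for D28 (0.000837), just over it. IFIT5, the sensor of 5′-triphosphate RNA, had the highest IFIT level in all U87 libraries but D28 replicate 2, where IFIT3 was higher. It held 64.6, 53.3 and 50.7 in Untreated, 87.5 and 90.6 at D3, and 44.2 and 62.1 at D14, and at day 28 87.2, 77.9 and 121 at D28 and 105, 106 and 101 at D28WO (TPM). Its D3, D28 and D28WO libraries were all above Untreated, with log2 fold changes of 0.66 ± 0.18, 0.74 ± 0.16 and 0.88 ± 0.16 that stayed under the fold limit.

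IFITM1 had the widest response of the 7 in U87. It held 4.53, 3.26 and 9.25 in Untreated, 53.9 and 56.3 at D3, and 11.1 and 20.3 at D14 (TPM). Its D14 libraries were above all Untreated libraries and below both D3 libraries, so IFITM1 was lower at D14 but not back to the Untreated range. At day 28 it reached 84.5, 91.7 and 125 at D28 and 80.2, 78.0 and 99.8 at D28WO, above D3 in every library. The log2 fold change was 3.17 ± 0.33 for D3 (adjusted p = 7.7e-05), 1.37 ± 0.33 for D14 (0.0384), 4.01 ± 0.29 for D28 (2.92e-06) and 3.80 ± 0.29 for D28WO (2.57e-06). The D14 rise of IFITM1 was lost when Untreated replicate 1 (1.28), Untreated replicate 2 (1.09), D14 replicate 2 (1.78) or D14 replicate 3 (0.96) was left out, the fold change then standing at the value in parentheses. It was also lost without a filter (adjusted p = 0.0809), with quantile normalization (0.200), with size factors (0.0891) and in a fit of the 2 compared groups (0.250), all in limma.

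IFITM2 and IFITM3 started from higher levels. IFITM2 held 62.8, 69.7 and 46.5 in Untreated, 87.8 and 93.0 at D3, and 88.1 and 89.4 at D14 (TPM), and its D14 libraries lay in the D3 range. It then held 132, 111 and 121 at D28 and 69.4, 66.8 and 80.3 at D28WO, with the washout libraries overlapping Untreated. IFITM3, the most abundant member in every U87 library, held 178, 182 and 191 in Untreated, 288 and 322 at D3, and 245 and 198 at D14 (TPM). Its day 28 values were 435, 294 and 406 at D28 and 248, 277 and 289.7 at D28WO, all above Untreated. At D28 IFITM2 had a log2 fold change of 1.03 ± 0.13 and IFITM3 of 1.02 ± 0.13 (adjusted p = 0.000263 and 0.000293), while at D3 the values of 0.61 and 0.73 were under the fold limit. IFITM2 at D14 had 0.58 ± 0.15 (adjusted p = 0.0444) and IFITM3 0.26 ± 0.15 (0.313). The D28 rises of IFIT1, IFITM2 and IFITM3 sit so close to the fold limit that all 3 were lost with median-ratio size factors or array weights, those of IFIT1 and IFITM2 also with quantile normalization (0.53 and 0.93), and single libraries decided them: IFIT1 without Untreated replicate 3 (0.94) or D28 replicate 3 (0.95), IFITM2 without Untreated replicate 3 (0.86) or D28 replicate 1 (0.97), and IFITM3 without Untreated replicate 1 (1.00), D28 replicate 1 (0.91) or D28 replicate 3 (0.96).

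**Figure D1:**
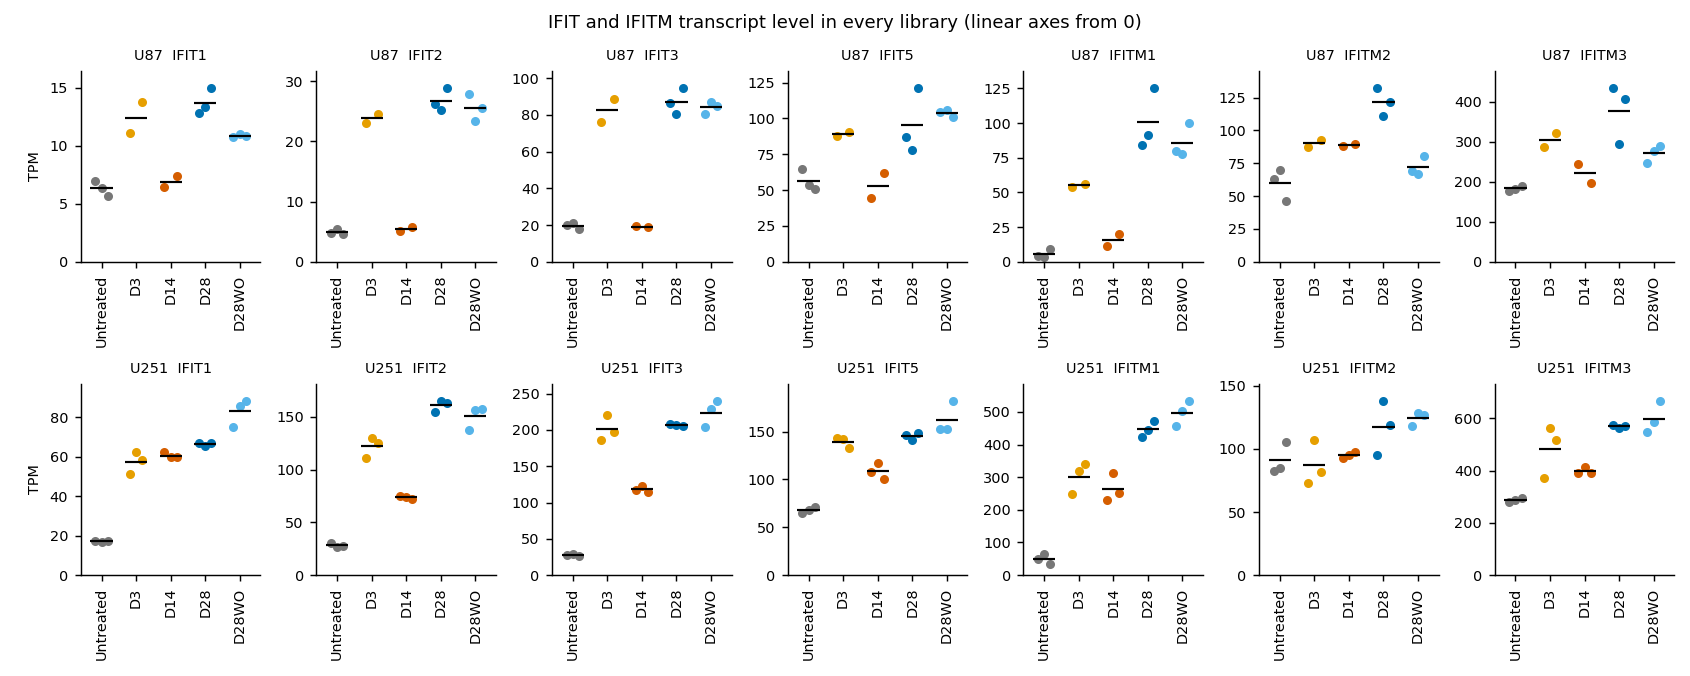
Level in TPM (y axis, linear from 0) of each of the 7 members in every library of U87 (top row) and U251 (bottom row), by group (x axis), with points for libraries and a bar for the group mean. In U87, IFIT2 held 5.10 and 5.82 TPM at D14 against 23.1 and 24.5 at D3, while in U251 all members but IFITM2 were above Untreated in every treated library.

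Step by step in U87, 3 of the 7 members fell from D3 to D14 (all genes lower: 2.05%). IFIT2 had a log2 fold change of -1.94 ± 0.16 (adjusted p = 2.04e-05), IFIT3 of -2.05 ± 0.11 (1.19e-06) and IFITM1 of -1.80 ± 0.36 (0.0139). IFIT1, IFIT5 and IFITM3 had -0.76, -0.75 and -0.47, with both D14 libraries below both D3 libraries, and IFITM2 had -0.03 with overlap. The same 3 rose again from D14 to D28 (all genes higher: 1.78%), IFIT2 by 2.10 ± 0.15, IFIT3 by 2.13 ± 0.10 and IFITM1 by 2.64 ± 0.33. Fitted on the D3 and D14 libraries alone, 2 against 2, limma called none of the members and no gene at all between those groups. The IFITM1 fall was also lost without D3 replicate 2 (-1.83), D3 replicate 3 (-1.77) or D14 replicate 2 (-1.40), each of which leaves 1 library in that group.

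After 14 days of washout, 6 of the 7 U87 members were above Untreated with an adjusted p under 0.05 (all genes higher by that limit alone: 28.6%). IFITM2 had 0.29 ± 0.13 (adjusted p = 0.101), with overlap. No member passed both limits between D28WO and D28 in limma (all genes lower: 2.42%, and higher: 3.11%), 2 of the 7 were lower with an unadjusted p under 0.05 (all genes: 14%), and both of these had an adjusted p under 0.05 (all genes: 8.44%). IFITM2 had a log2 fold change of -0.75 ± 0.13 after washout (adjusted p = 0.00267) and IFITM3 of -0.46 ± 0.13 (0.0311), in each case with all 3 washout libraries below all 3 continuous ones. IFIT1 had -0.31 ± 0.15 (0.192), also without overlap. For the others the washout and continuous libraries overlapped, and the 95% interval of the difference was -0.34 to 0.22 for IFIT2, -0.25 to 0.15 for IFIT3, -0.20 to 0.50 for IFIT5 and -0.85 to 0.43 for IFITM1. Compared with D14, the point of withdrawal, IFIT2, IFIT3 and IFITM1 rose by 2.04, 2.08 and 2.43 (3 of 7; all genes higher: 6.3%). IFIT1 and IFIT5 had 0.59 and 0.97 in that comparison, under the fold limit, though without D14 replicate 3 IFIT5 passed it here (1.22, adjusted p = 0.00389) and from D14 to D28 (1.07, 0.0251). IFITM3 had 0.30, and IFITM2 had -0.30 with all washout libraries below both D14 libraries (adjusted p = 0.164). Cell markers also moved at D28WO in U87, where the glial sum was 1576 to 1741 TPM against 2035 to 2291 in Untreated and 1879 to 2038 at D28, and the fibroblast sum 283 to 349 TPM against 516 to 603 and 526 to 589. Against Untreated, GFAP and OLIG2 rose among the glial markers, COL1A1 and THY1 fell among the fibroblast markers and EPCAM among the epithelial ones, and the part of these shifts in the washout values was not tested.

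In U251 all members but IFITM2 were above Untreated from D3 to D28WO, and IFIT2, IFIT3 and IFIT5 were lower at D14 than at D3. Against Untreated, 5 of the 7 rose at D3 (all genes: 9.72%), 4 at D14 (4.72%), 5 at D28 (11.9%) and 6 at D28WO (4.07%). No member fell. IFIT1, IFIT2, IFIT3 and IFITM1 rose in all 4 comparisons, IFIT5 in all but D14, IFITM3 at D28WO and IFITM2 in none. The median log2 fold change of the 7 members was 1.68, 1.35, 1.89 and 2.20, beside 0.13, 0.10, 0.16 and 0.02 over all genes tested. All groups held 3 libraries.

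IFIT3 had the widest IFIT response. It held 27.2, 28.7 and 25.8 in Untreated, 187, 220.0 and 197 at D3, and 117, 122 and 115 at D14 (TPM). Its D14 libraries lay between, above all Untreated and below all D3 libraries. At day 28 it held 208, 207 and 205 at D28 and 203, 228 and 239 at D28WO. Log2 fold changes against Untreated were 2.84 ± 0.07 for D3, 2.07 ± 0.07 for D14, 2.88 ± 0.07 for D28 and 2.99 ± 0.07 for D28WO, with adjusted p from 1.29e-12 to 2.25e-10.

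IFIT2 was also lower at D14 than at D3. It held 30.2, 27.0 and 28.0 in Untreated, 111, 130.3 and 125 at D3, and 75.2, 74.0 and 71.8 at D14 (TPM). It then exceeded its D3 level, with 154, 165 and 163 at D28 and 138, 156 and 158 at D28WO. Its log2 fold changes were 2.06 ± 0.07, 1.35 ± 0.07, 2.46 ± 0.07 and 2.36 ± 0.07 in the order D3, D14, D28 and D28WO (adjusted p from 1.02e-11 to 2.17e-08).

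IFIT1 did not separate D14 from D3. Its libraries held 17.3, 17.0 and 17.3 in Untreated, 51.5, 62.4 and 58.3 at D3, and 62.3, 59.7 and 59.9 at D14 (TPM), and the D14 and D3 libraries overlapped. The level was 66.9, 65.3 and 67.0 at D28 and 75.1, 85.6 and 88.1 at D28WO, so the washout libraries were the highest of all groups. The fold change against Untreated was 1.68 ± 0.08 for D3, 1.76 ± 0.08 for D14, 1.89 ± 0.08 for D28 and 2.20 ± 0.08 for D28WO (log2, adjusted p from 8.52e-11 to 2.7e-09). IFIT5 held 65.2, 68.2 and 71.0 in Untreated, 143, 142 and 133 at D3, and 108, 117 and 100.3 at D14 (TPM), and 146, 141 and 149 at D28 and 153, 153 and 182 at D28WO. All treated libraries of IFIT5 were above Untreated, with log2 fold changes of 1.02 ± 0.07, 0.66 ± 0.07, 1.08 ± 0.07 and 1.24 ± 0.07. The D3 rise of IFIT5 was lost with either other scaling (1.00 with quantile normalization, 0.92 with size factors) and without Untreated replicate 1 (0.99), and its D28 rise with size factors (0.96).

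IFITM1 held 49.8, 65.3 and 33.5 in Untreated, 248, 318 and 341 at D3, and 230.5, 314 and 251.1 at D14 (TPM), and of these groups only D3 and D14 overlapped. At day 28 it held 424, 443 and 471 at D28 and 456, 502 and 533 at D28WO. Its log2 fold changes of 2.62 ± 0.19, 2.44 ± 0.19, 3.20 ± 0.19 and 3.35 ± 0.19 had adjusted p from 1.55e-08 to 1.16e-06. IFITM3 was again the most abundant member, at 280.1, 288 and 296 in Untreated, 372, 562 and 516 at D3, and 389, 413 and 389 at D14 (TPM). It held 575, 563 and 569.8 at D28 and 546, 585 and 665 at D28WO. Every treated library of IFITM3 was above Untreated, but its fold changes of 0.72, 0.46 and 0.98 were under the limit at D3, D14 and D28. At D28 IFITM3 passed it with quantile normalization (1.13) and without Untreated replicate 3 (1.00), and the rise of 1.05 ± 0.11 for D28WO was lost without D28WO replicate 3 (0.97).

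IFITM2 stood apart. Its libraries held 82.2, 85.2 and 106 in Untreated, 73.2, 107 and 82.0 at D3, and 93.2, 95.6 and 97.7 at D14 (TPM), with overlap between all 3 groups. At day 28 it held 95.5, 138 and 119 at D28 and 118, 128 and 127 at D28WO. The log2 fold change was -0.07 for D3 (95% interval -0.38 to 0.24), 0.08 for D14 (-0.23 to 0.38), 0.36 for D28 (0.05 to 0.66) and 0.45 for D28WO (0.15 to 0.76), where all 3 libraries were above Untreated and the adjusted p was 0.0288. At D14 the sign changed with size factors (-0.02).

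**Figure D2:**
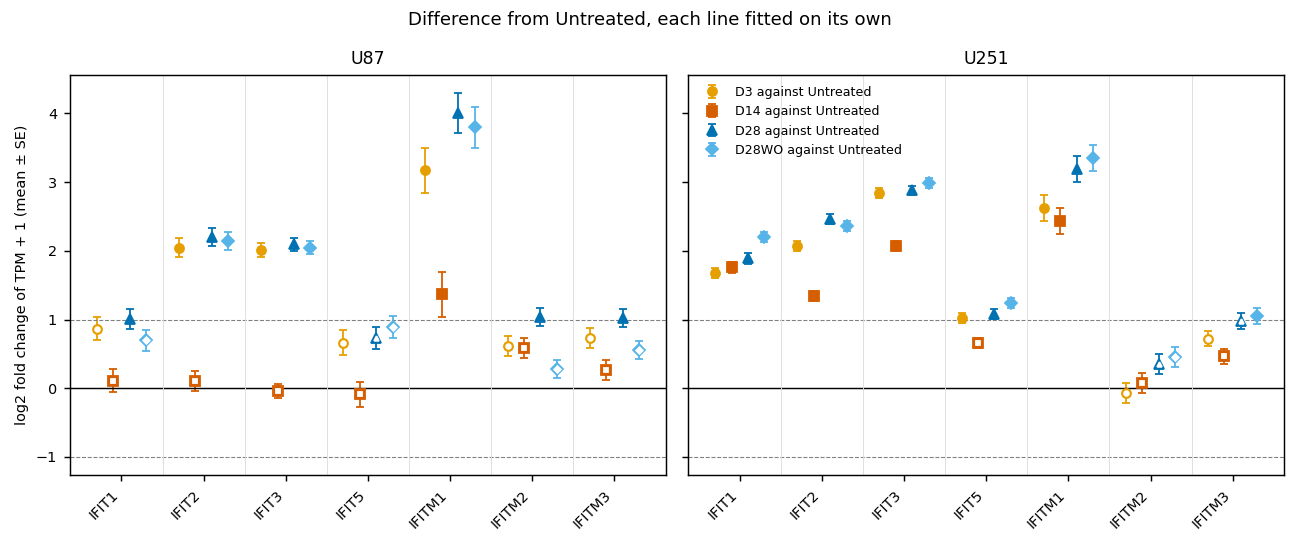
Log2 fold change of TPM + 1 against Untreated (y axis, points with standard error) of the 7 members (x axis) in U87 (left) and U251 (right), for D3 (circles), D14 (squares), D28 (triangles) and D28WO (diamonds). Filled points passed both limits, points with a white centre did not, and dashed lines mark 1 and -1. IFIT2 and IFIT3 stood near 0 at D14 in U87 (0.11 and -0.04) and at 1.35 and 2.07 in U251.

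Between treated groups of U251, no member passed both limits from D3 to D14 in limma (all genes lower: 3.29%, and higher: 3.19%), while 4 of the 7 were lower with an unadjusted p under 0.05 (all genes: 18.9%) and 3 with an adjusted p under 0.05 (all genes: 12.6%). These 3 were IFIT2 (-0.72 ± 0.07, adjusted p = 8.92e-06), IFIT3 (-0.76 ± 0.07, 4.55e-06) and IFIT5 (-0.36 ± 0.07, 0.00290), each with all D14 libraries below all D3 libraries. IFIT1 had 0.08 ± 0.08 (95% interval -0.09 to 0.25). Expressed as log2 ratios within each library, the same levels gave 1.06 to 1.11 at D3 and 0.26 to 0.31 at D14 for IFIT2 to IFIT1 in U251, and 1.76 to 1.86 and 0.91 to 1.03 for IFIT3 to IFIT1. In U87 the first ratio was 0.83 to 1.06 at D3 and -0.35 to -0.33 at D14, and the second 2.69 to 2.78 and 1.35 to 1.59, so both were lower at D14 in each line. The pairs were chosen with the levels known, and the ratios were not tested. The cell markers of U251 moved as well. The glial sum was 1587 to 1915 TPM at D3 and 2721 to 3103 at D14, the fibroblast sum 247 to 309 at D3 and 468 to 512 at D14, and the endothelial sum 2.45 to 3.46 at D3 and 9.79 to 21.4 at D14. GFAP, S100B, CDH5 and PDGFRB rose from D3 to D14, and GFAP and CDH5 fell from D14 to D28.

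From D14 to D28, 1 of the 7 members rose (all genes higher: 4.23%), IFIT2 with 1.12 ± 0.07 (adjusted p = 1.65e-07). IFIT3, IFIT5, IFITM1 and IFITM3 had 0.81, 0.42, 0.76 and 0.52, without overlap, so that 5 of the 7 were higher with an adjusted p under 0.05 (all genes: 11.3%). After washout, no member passed both limits against D28 in limma (all genes lower: 8.14%, and higher: 1.12%), and 1 of the 7 had an unadjusted p under 0.05 (all genes higher: 13.7%, and 10.3% by an adjusted p under 0.05). That was IFIT1, which was higher by 0.31 ± 0.08 (adjusted p = 0.00789), each washout library above each continuous one. The remaining members had 95% intervals of -0.25 to 0.06 for IFIT2, -0.04 to 0.26 for IFIT3, -0.01 to 0.31 for IFIT5, -0.26 to 0.56 for IFITM1, -0.21 to 0.40 for IFITM2 and -0.18 to 0.31 for IFITM3. Set against D14, the washout group of U251 had 1 riser of 7 (all genes higher: 1.78%), IFIT2 with 1.02 ± 0.07, which fell under the fold limit without D28WO replicate 2 (0.99) or replicate 3 (0.98). IFITM1 had 0.91 there and passed the limit without D14 replicate 2 (1.04). Of the glial markers, GFAP rose between D28 and D28WO in U251, from a mean of 243 to 573 TPM. The part of this shift in the washout values was not tested.

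**Figure D3:**
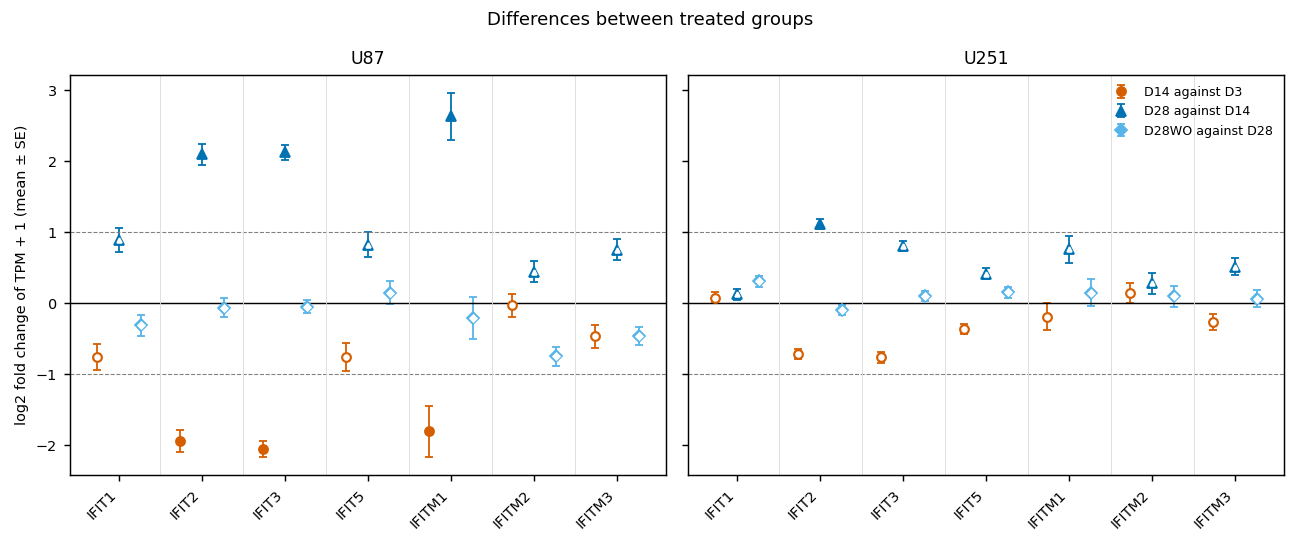
Log2 fold change of TPM + 1 (y axis, points with standard error) of the 7 members (x axis) between treated groups of U87 (left) and U251 (right): D14 against D3 (circles), D28 against D14 (triangles) and D28WO against D28 (diamonds). Filled points passed both limits and points with a white centre did not. The D28WO against D28 differences lay between -0.75 and 0.31 in both lines.

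By mean level, the order of the groups in U87 was Untreated, D14, D3, D28WO and D28 for IFIT2 and IFITM1, and IFIT3 followed it but for D14 and Untreated, which changed places. For IFIT2 and IFIT3 the libraries of Untreated and D14 overlapped, those of D14 or Untreated and D3 were separate, and D3, D28WO and D28 overlapped their neighbours, while for IFITM1 only D28WO and D28 overlapped. IFITM2 had a different order in U87, Untreated, D28WO, D14, D3 and D28, with overlap between Untreated and D28WO and between D14 and D3. In U251 the order was Untreated, D14, D3, D28 and D28WO for IFIT3, IFIT5, IFITM1 and IFITM3. D14 and D3 overlapped there for the IFITM genes and were separate for IFIT3 and IFIT5. For IFITM2 each group of U251 overlapped the next one.

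The composition of each family differed between groups. In U87, IFITM1 made up 1.28% to 3.75% of the summed TPM of the 3 IFITM genes in Untreated libraries, 11.9% to 12.5% at D3, 3.23% to 6.60% at D14, 12.96% to 19.2% at D28 and 18.5% to 21.2% at D28WO. In U251 its share was 7.69% to 14.9% in Untreated and between 32.2% and 41.3% in the treated libraries. IFITM1, the surface member, held a larger share in every treated library than in any Untreated library of its line, apart from D14 in U87, where 1 of 2 libraries overlapped, and IFITM3 was the most abundant IFITM gene in each library. IFIT5 held 61.9% to 67.0% of the IFIT sum in Untreated U87 and 39.6% to 46.7% at D28, and 46.6% to 50.0% and 24.5% to 25.4% in U251. In U87 the IFIT5 share overlapped Untreated at D14, at 58.9% to 65.9%, and in every other treated group of either line it was below all Untreated libraries. Summed over its 3 members, the IFITM family stood at 249 ± 5.41 TPM (SD, n = 3) in Untreated U87 and 600.5 ± 89.7 at D28, and at 429 ± 14.4 and 1133 ± 34.0 in U251.

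**Figure D4:**
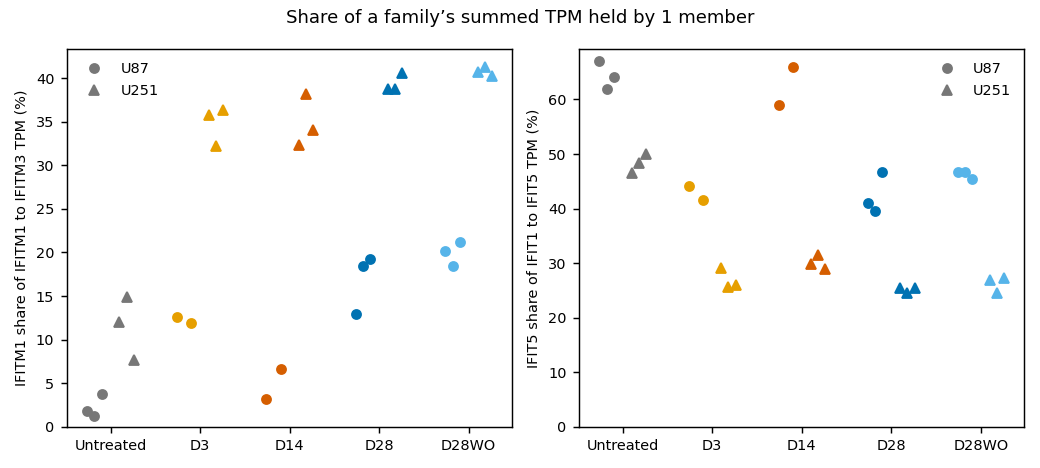
Share (y axis, % from 0) of the summed TPM of IFITM1 to IFITM3 held by IFITM1 (left) and of IFIT1, IFIT2, IFIT3 and IFIT5 held by IFIT5 (right), by group (x axis), with circles for U87 libraries and triangles for U251 libraries. The IFITM1 share was at most 3.75% in Untreated U87 and at most 14.9% in Untreated U251.

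How reads were shared between overlapping genes limits 2 of these readings. The annotated readthrough gene ENSG00000288681 overlaps IFITM1, and 41.2% of the 150-base windows of the IFITM1 transcript are also found in it. No window of the other 6 members had an exact match in a transcript of another gene. The search allowed no mismatch, so it does not exclude reads shared between similar genes. ENSG00000288681 held 1.37, 0 and 15 TPM in Untreated U251 and 48.1, 232 and 60.4 at D3, and 2.67, 0 and 1.37 in Untreated U87 and 31.8, 17.7 and 2.81 at D28. With both rows summed, the IFITM1 rise at D14 in U87 was no longer past the limits (1.15), the other IFITM1 rises and falls stayed past them, and IFITM1 passed the limit in U251 between D28WO and D14 (1.01). On the IFIT locus, LIPA runs on the opposite strand across IFIT2, IFIT3 and IFIT1. Whether counting used the strand is not given in the sources used here. LIPA held between 86.2 and 142 TPM in U87 and between 104 and 146 TPM in U251, and it passed the limits in no comparison.

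Of 8 factors listed as acting at ISREs, IRF1, IRF2, IRF5, IRF7 and IRF9 overlapped the Untreated libraries at D14 in U87 and lay above them in the other treated groups, as IFIT2 and IFIT3 did. STAT2 and IRF3 lay above them in all treated groups, and IRF8 was too low to test in either line. In U87, 5 of 7 rose at D3 and none at D14, and 5 rose at both day 28 points, each time STAT2, IRF9, IRF1, IRF5 and IRF7. The median log2 fold change of the 7 was 1.26, 0.24, 1.28 and 1.61 in the same order of groups. At D14, limma gave STAT2 0.50 (adjusted p = 0.0100), which was under the fold limit. IRF9 held 30.5, 34.2 and 22.9 in Untreated, 65.3 and 66.1 at D3, and 27.7 and 33.4 at D14 (TPM). It then held 66.9, 63.3 and 74.4 at D28 and 70.9, 77.3 and 73.8 at D28WO. IRF1 held 136, 130.1 and 134 in Untreated, 445 and 450.1 at D3, and 134 and 109.8 at D14 (TPM). It then held 539, 457 and 443 at D28 and 527, 545 and 457 at D28WO. IRF9 and IRF1 were in the Untreated range or below it at D14 and above it in every other treated library.

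In U251, 3 of 7 factors rose in each comparison with Untreated, STAT2, IRF9 and IRF1. IRF1 held 137, 142 and 145 in Untreated, 514, 721 and 533 at D3, and 288, 321 and 292 at D14 (TPM), with a log2 fold change of -0.95 ± 0.11 from D3 to D14 (adjusted p = 2.66e-05). STAT2 had -0.49 (adjusted p = 0.000115) and IRF9 -0.19 (0.0511). After washout the IRF1 level was 609, 663 and 588 TPM, beside 577, 559 and 674 at D28. None of the 7 factors passed the limits between D28WO and D28 in either line (all genes: 5.53% in U87 and 9.26% in U251). The receptor chains IFNAR1, IFNAR2, IFNGR1 and IFNGR2 passed them in none of the 16 comparisons, where 2.1% to 15.2% of all genes did.

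The interferon ligands were low in both lines. None of the 9 ligand genes was high enough to test in U87, and IFNG was listed at 0 in every library of both lines. IFNB1 was listed at 0 in every U87 library too. In U251, IFNB1, the type I interferon β, was listed at 0 in all 3 Untreated libraries, and held 2.21, 1.09 and 2.11 TPM at D3, 3.81, 3.47 and 3.24 at D14, 6.26, 6.77 and 8.59 at D28 and 2.05, 1.66 and 0.927 at D28WO. IFNB1 rose against Untreated at all 4 points and fell after washout relative to D28 (-1.71 ± 0.24, adjusted p = 0.000126). IFNL1, a type III interferon, held 2.23, 1.91 and 3.53 TPM at D28, was listed at 0 in Untreated and was at most 1.23 TPM in any other library. It passed the filter on low values only through D28, so its comparisons with that group are not counted. Between D28WO and D28 in U251, no IFIT or IFITM gene passed both limits (all genes lower: 8.14%, and higher: 1.12%). A link between the ligands and the members was not tested.

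**Figure D5:**
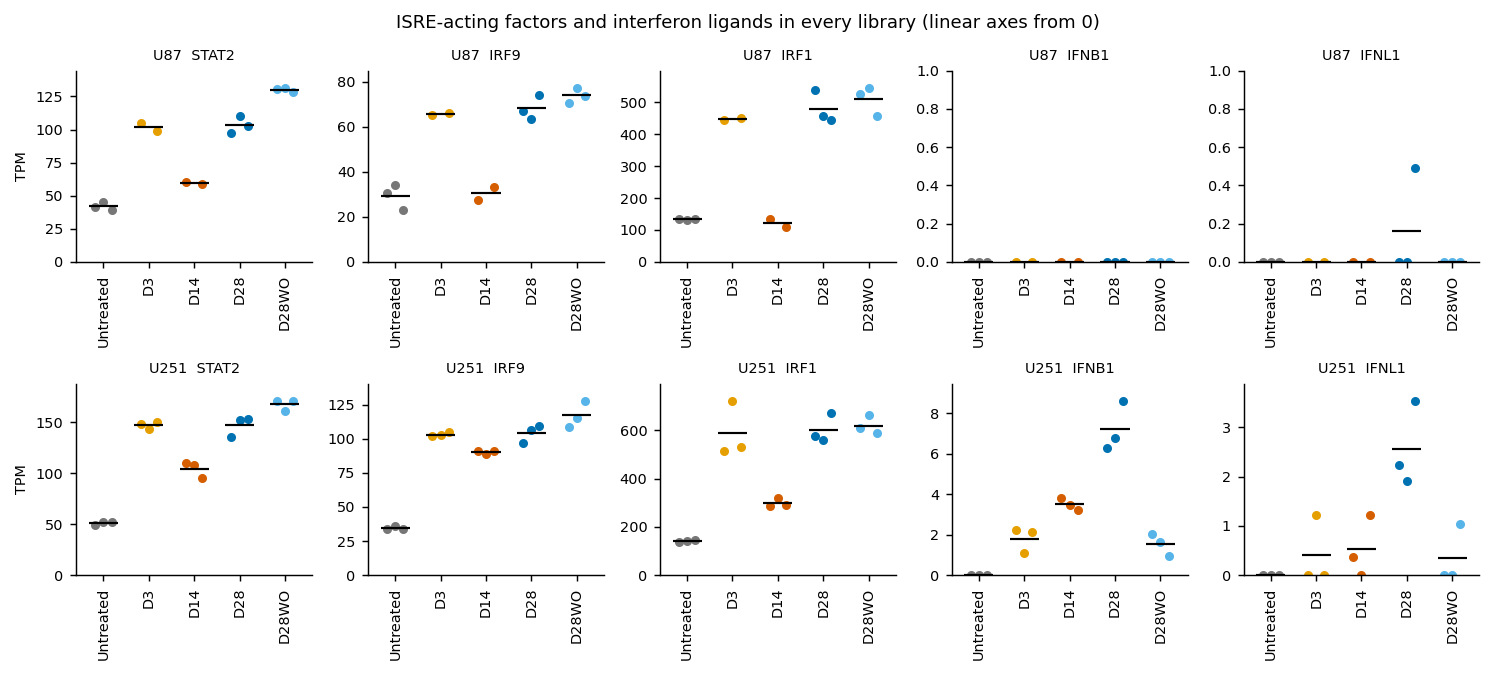
Level in TPM (y axis, linear from 0) of STAT2, IRF9, IRF1, IFNB1 and IFNL1 in every library of U87 (top) and U251 (bottom), by group (x axis), with points for libraries and a bar for the group mean. IRF9 stood at 27.7 and 33.4 at D14 in U87 (TPM), within its Untreated range, and IFNB1 was listed at 0 in every U87 library.

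Of 12 other antiviral interferon-stimulated genes, 8, 3, 8 and 7 rose against Untreated in U87, in the order D3, D14, D28 and washout, with median log2 fold changes of 1.46, 0.53, 1.57 and 1.22, and all 12 rose in each of the 4 comparisons in U251, with medians of 3.44, 3.07, 3.55 and 3.93. OAS1, an RNA-activated oligoadenylate synthetase, rose by 1.25 ± 0.22 at D14 in U87 (adjusted p = 0.0125), where OAS2 and MX2 were the others of the 3 that rose. OAS1 and OAS3 fell after washout in U87 (-1.69 and -1.05), and RSAD2, which encodes viperin, fell in U251 (-1.42). The list of 11 partners and modifiers holds translation factors that IFIT proteins bind, the signaling adaptor MAVS and the kinase TBK1, cap methyltransferases, and enzymes and membrane proteins that act on or with IFITM3. Among them only CMTR2, a cap 2′-O-methyltransferase, passed the limits, at D3 in U251 (1.26) and at D28WO in U87 (1.07).

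Of the family members outside the 7, IFIT1B and IFITM5 were low and IFITM10 was expressed in both lines. IFIT1B, which lies between IFIT3 and IFIT1, was listed at 0 in all Untreated libraries of both lines and reached at most 0.610 TPM in U87. In U251 IFIT1B rose at D3 (1.13), D28 (1.21) and D28WO (1.01), at means of 1.204, 1.35 and 1.02 TPM. IFITM5, a bone-restricted member, was above 0 in 1 library of each line. IFITM10 held 18.8 ± 1.84 TPM (SD, n = 3) in Untreated U251, with 40.4 ± 2.34 TPM at D3 and 39.1 ± 5.65 TPM at D14, and rose there at both points (1.07 and 1.01), and passed the limits in no U87 comparison.

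Genes with the most similar pattern were ranked by the root mean square difference of the log2 fold changes over the 8 comparisons with Untreated, 4 per line, among 20473 genes tested in both lines. This was done for the 5 members with a log2 fold change over 1 in size in each line, which left out IFIT5 and IFITM2. IFIT1 was closest to SAMHD1 (0.161), TRIM22 (0.208) and SAMD9 (0.218), and IFIT2 to IFIH1 (0.245), TLR3 (0.262) and BTC (0.270). IFIT3 was closest to DDX60 (0.161), with REC8 (0.409) and TLR3 (0.410) farther off. The nearest genes to IFITM1 were SLC15A3 (0.544), ACSL5 (0.650) and APOL3 (0.660), at distances that were larger than those of the other 4 members. IFITM3 was closest to PRDM11 (0.158), ENSG00000260288 (0.167) and TRIM26 (0.169). The 8 values of each gene share the Untreated libraries of their line.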

How the data were processed

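RNA was sequenced in 30 libraries of U87 and U251. The authors trimmed reads with Trim Galore after FastQC, aligned them to GRCh38 with STAR and counted them with featureCounts. The deposited tables, 1 per line, hold TPM (the length-corrected unit of the results), although a sheet of the study calls such matrices CPM. The step from counts to TPM is not given in the sources used here. TPM values keep no depth, so no counting error can be given.

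Each library was assigned to its group by its label. In U87, 2 columns share 1 name and were not used. With limma 3.58.1 in R 4.3.3, log2(TPM + 1) was fitted on the 5 groups of each line, with a moderated variance that follows the mean, for genes that averaged 0.5 TPM or more over the line's libraries, and p-values were adjusted by Benjamini-Hochberg. The code was tested on simulated data. Tables and plots were made in Python 3.11.15 with pandas 2.3.3, numpy 2.4.6 and matplotlib 3.10.9. The members, gene lists and tests were chosen with earlier results of these data known. Named genes are the 7 members, the listed genes and, per member, the 3 genes with the most similar fold changes. A further gene, left out of the lists, is not reported here. The overlapping genes ENSG00000288681 and LIPA were added after values were seen. The replicates are labelled as biological and described as independent cultures. Since cultures were split at D14, a D28 and a D28WO library may share a parent culture. The sources used here do not say which, and the main fit treats them as unpaired. Alternatives were another pseudocount, filter, scaling and threshold, fits of 2 groups, with a replicate block or with array weights, summed IFITM genes and leaving out single libraries.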

Additional observations from a re-analysis of the deposited data

Results flagged for a closer look

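In 2 cases, differences between treated groups had opposite directions in the lines, without overlap of libraries in either. They were picked by searching every member and comparison. The share of all genes that meet this rule was not computed, so the count has no baseline. From D28 to D28WO, IFIT1 was lower in U87, with a log2 fold change of -0.31 (adjusted p = 0.192 in limma), and higher in U251, with 0.31 (0.00789). From D14 to D28WO, IFITM2 was lower in U87, with -0.30 (adjusted p = 0.164 in limma), and higher in U251, with 0.38 (0.0676), neither past the threshold. The difference between the lines was not tested, because their tables were normalized separately.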

How the results depend on the processing

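The alternatives gave 1814 fold changes of the 7 members. Of these, 1719 had the same direction and side of the limits, 37 lost a call, 42 gained one and 16 changed sign. Most gains came with the adjusted p alone. Part of the agreement was fixed beforehand. The adjusted p alone reused the main fold changes, and the settings with summed rows left the fold changes of the other members unchanged. The changes of sign were all in differences that were not called. In U87, IFIT1 at D14 against Untreated was -0.25 with quantile normalization and -0.046 with size factors, and IFIT2 was -0.27 and -0.047. In U251, IFITM3 at D28WO against D28 was -0.039 with quantile normalization, and IFITM2 at D14 against Untreated was -0.016 with size factors. Leaving out single libraries gave, in U87, IFIT3 -0.093 to 0.011 and IFIT5 -0.33 to 0.15 at D14 against Untreated, IFITM2 -0.068 to 0.015 at D14 against D3, and IFIT2 -0.12 to 0.0023 and IFIT3 -0.10 to 0.012 at D28WO against D28. It gave, in U251, IFITM2 -0.22 to 0.048 at D3 against Untreated, and IFITM2 -0.042 to 0.22 and IFITM3 -0.011 to 0.13 at D28WO against D28.

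The 1 member called in U87 at D14 against Untreated became 0 without a filter, with quantile normalization, with size factors, with only the 2 compared groups, with IFITM1, IFITM2 and IFITM3 summed and with IFITM1 summed with ENSG00000288681, an alternative chosen after seeing the data, and 0 to 1 without single libraries. The 6 called at D28 became 3 with size factors or array weights, and the 3 called at D14 against D3 became 0 in a fit of those 2 groups. The 1 called in U251 at D28WO against D14 became 2 with IFITM1 summed with ENSG00000288681, and 0 to 2 without single libraries. With the adjusted p alone and no fold limit, the members called in U87 against Untreated were 7 at D3 (all genes: 16.7%), 2 at D14 (5.16%) and 6 at D28WO (42%). Between treated U87 groups they were 6 at D28 against D14 (4.06%), 2 at D28WO against D28 (18.3%) and 5 at D28WO against D14 (25.9%). In U251 they were 3 at D14 against D3 (25.5%) and 5 at D28 against D14 (20.8%). For D28WO in U251 they were 1 against D28 (29.1%) and 6 against D14 (26.4%).

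Over all genes, the 1428 calls in U87 at D3 against Untreated became 822 with quantile normalization, 626 with 2 groups and 682 to 1422 without single libraries. The 481 at D14 became 269 without a filter, 213 with quantile normalization, 306 with size factors, 51 with 2 groups and 92 to 473 without single libraries. The 1692 at D28 became 1052 with quantile normalization and 1113 with 2 groups, the 602 at D14 against D3 became 0 with 2 groups and 344 to 449 without single libraries, and the 485 at D28 against D14 became 239 with 2 groups. With the adjusted p alone, the counts for D3, D14, D28 and D28WO against Untreated, D14 against D3, D28 against D14, D28WO against D28 and D28WO against D14 were 3823, 1182, 5445, 9626, 1098, 930, 4202 and 5929 in U87 and 9677, 5008, 9617, 6555, 6026, 4925, 6889 and 6255 in U251. Quantile normalization lowered the share of higher calls against Untreated in U87 from 93.8% to 66.1% at D3, 90% to 55.4% at D14, 91.7% to 63% at D28 and 85.8% to 52.1% at D28WO, and in U251 from 68.1% to 49.3%, 82% to 62.1% and 78% to 52.3% at D3, D14 and D28. Between treated groups it moved that share in U87 from 21.9% to 32.2% at D14 against D3, 84.3% to 74.3% at D28 against D14 and 65% to 50.9% at D28WO against D14, and in U251 from 72.6% to 56.8%, 12.1% to 37.8% and 24.9% to 41.4% at D28 against D14, D28WO against D28 and D28WO against D14. With size factors it was 78.4% at D14 and 71.1% at D28WO against Untreated in U87. The causes were not tested.

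Deviations of libraries with the same replicate number had correlations of -0.06 to 0.05 in U87 and -0.04 to 0.05 in U251. Libraries with other numbers had -0.05 to 0.06 and -0.05 to 0.04. With so few libraries per group, these values cannot settle whether the numbers pair the samples. With a replicate block, 1 member was called in U87 at D14 against Untreated and 6 at D28, as without it. In U87, leaving out a library at D3 or D14 leaves 1, whose spread is assumed to be that of the other groups. TPM holds no depth, so the precision of low values is unknown, and D3 and D14 of U87 had 2 libraries each.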
